A study of Mus musculus and Bos taurus with 2 samples.

Results

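The mouse genes named Zfp600 to Zfp999 form a large set of zinc finger genes, most of which encode DNA-binding repressors. Members were the genes of this name range, with no letter after the number, that had at least 1 assembled transcript model on their own strand in the mouse library. There were 109 of them, among 14090 named mouse genes with such a model, and they held 270 of the 31354 sense models. The data were transcript models that the authors assembled from nanopore long-read cDNA of polyadenylated RNA. The mouse library pooled about 200 embryos at the late 2-cell stage, 36 h after insemination, when the mouse embryo's own genome becomes active. These embryos came from superovulated Slc:ICR mice, an outbred stock, and were fertilized in vitro and cultured in KSOM medium, so they stand for embryos produced in culture. The series also holds 1 bovine library of 8-cell to 16-cell embryos, which has no genes under these names and was not used further. A sense model shares the gene's strand and overlaps its exons or splice sites (class codes =, c, k, m, n, j and o), and an exact match repeats the whole intron chain of a reference transcript.

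With 1 mouse library there is no replicate error and no test. Where a share below carries an interval, it is an exact Clopper-Pearson 95% interval that covers counting error only. No read count came with the models, so their depth is unknown. Of a gene that lacks one it can only be said that it was not assembled, and not that it was silent. The number of models of a gene is not a level of expression. Markers of the late 2-cell stage had models for 10 of 10 symbols, among them Sp110 with 6, Tdpoz1, Tdpoz3 and Zscan4d with 3 each and Zfp352 with 1. Over all annotated protein-coding genes the share with a model was 52.3%. Markers of cumulus and granulosa cells, which surround the oocyte, had models for 5 of 10 symbols. These were Fn1 with 4, Hsd3b1 with 3, Lhcgr and Tnfaip6 with 2 each and Inha with 1, while Has2, Vcan, Ptx3, Amh and Foxl2 had none. Whether any member's model came from such cells was not tested.

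Zinc finger proteins of this kind read DNA through a row of fingers, each a loop of amino acids held by a zinc ion between cysteines and histidines. In the largest group a KRAB domain stands before the fingers and binds the scaffold protein TRIM28, which brings in SETDB1, a histone methyltransferase, and the heterochromatin proteins. Many of these proteins bind transposable elements and keep them silent in the early embryo and in embryonic stem cells, and new members arise by duplication, so that the genes lie in clusters of similar copies.

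The usual gene has a short exon with the start codon, a KRAB exon, a further short exon and a long last exon with all fingers. Among the 70 members with both a KRAB pattern and fingers in the protein annotated by GENCODE M21, the KRAB exon was 127 bp long in 66. The start codon lay in an exon before the KRAB exon in 67 of 70, and the fingers lay wholly in the last coding exon in 69 of 70. The 66 exons of equal length shared a median of 63.0% of their bases over 2145 pairs, counted position by position without gaps, and 46.5% in the least alike pair. The KRAB exons of 8 members are shown because the models differed in whether they kept this exon or reached it in frame; they are from GENCODE M21 on GRCm38 (mm10), 5′ to 3′, with the bases of the KRAB pattern in capitals.
Zfp809 KRAB exon, chr9:22235020-22235146, plus strand: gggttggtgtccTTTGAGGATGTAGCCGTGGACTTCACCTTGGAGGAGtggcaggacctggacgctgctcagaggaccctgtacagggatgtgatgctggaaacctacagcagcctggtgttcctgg
Zfp932 KRAB exon, chr5:110006944-110007070, plus strand: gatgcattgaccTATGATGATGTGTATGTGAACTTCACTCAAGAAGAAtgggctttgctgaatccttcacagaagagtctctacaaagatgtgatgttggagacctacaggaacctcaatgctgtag
Zfp873 KRAB exon, chr10:82058370-82058496, plus strand: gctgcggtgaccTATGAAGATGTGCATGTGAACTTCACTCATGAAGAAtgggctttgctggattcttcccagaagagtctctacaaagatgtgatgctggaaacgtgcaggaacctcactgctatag
Zfp936 KRAB exon, chr7:43187170-43187296, plus strand: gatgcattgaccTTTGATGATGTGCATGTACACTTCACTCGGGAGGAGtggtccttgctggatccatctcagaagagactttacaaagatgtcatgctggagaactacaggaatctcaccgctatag
Zfp788 KRAB exon, chr7:41647491-41647617, plus strand: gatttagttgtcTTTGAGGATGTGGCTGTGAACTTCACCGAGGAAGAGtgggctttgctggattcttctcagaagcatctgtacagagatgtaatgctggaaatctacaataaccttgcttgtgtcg
Zfp942 KRAB exon, chr17:21930366-21930492, minus strand: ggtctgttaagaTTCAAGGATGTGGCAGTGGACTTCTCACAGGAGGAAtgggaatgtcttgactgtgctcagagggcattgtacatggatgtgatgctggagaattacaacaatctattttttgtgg
Zfp708 KRAB exon, chr13:67074833-67074959, minus strand: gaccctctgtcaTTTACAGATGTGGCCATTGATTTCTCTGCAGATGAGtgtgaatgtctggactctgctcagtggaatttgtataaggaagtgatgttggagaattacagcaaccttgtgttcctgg
Zfp954 KRAB exon, chr7:7117786-7117912, minus strand: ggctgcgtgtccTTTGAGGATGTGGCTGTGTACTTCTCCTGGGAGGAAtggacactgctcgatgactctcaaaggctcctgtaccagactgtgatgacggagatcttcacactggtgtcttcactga
Zfp873 and Zfp932 shared 88.2% of these bases, Zfp932 and Zfp936 82.7%, and Zfp708 and Zfp954 52.0%. The most alike members in the whole set were Zfp600 and Zfp980, whose KRAB exons were identical, Zfp963 and Zfp964 with 99.2%, and Zfp979, which shared 98.4% with Zfp600 and with Zfp980. Among such near-identical copies the gene to which a long read was assigned is uncertain, and 5 members (Zfp600, Zfp616, Zfp735, Zfp979 and Zfp985) were matched to a reference transcript that is placed a second time in the reference.

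The starts of the models were set beside annotated promoters. Promoter windows, from RefSeq on GRCm38.p6, hold 250 bases before and 50 bases after an annotated start, and 94 of the 109 members had one. Those of Zfp809, Zfp708 and Zfp939 are shown, 5′ to 3′, as starts where members with a known target or the most models were assembled; capitals run from the first base that a model transcribes. Zfp939 is annotated as a pseudogene in GENCODE M21.
Zfp809 promoter, chr9:22225453-22225752, plus strand: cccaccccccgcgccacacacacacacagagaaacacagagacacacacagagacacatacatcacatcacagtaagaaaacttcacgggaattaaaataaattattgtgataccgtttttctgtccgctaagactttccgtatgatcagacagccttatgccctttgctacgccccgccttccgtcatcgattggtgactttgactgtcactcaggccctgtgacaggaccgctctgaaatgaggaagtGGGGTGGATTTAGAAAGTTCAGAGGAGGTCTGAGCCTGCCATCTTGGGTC
Zfp708 promoter, chr13:67081496-67081795, minus strand: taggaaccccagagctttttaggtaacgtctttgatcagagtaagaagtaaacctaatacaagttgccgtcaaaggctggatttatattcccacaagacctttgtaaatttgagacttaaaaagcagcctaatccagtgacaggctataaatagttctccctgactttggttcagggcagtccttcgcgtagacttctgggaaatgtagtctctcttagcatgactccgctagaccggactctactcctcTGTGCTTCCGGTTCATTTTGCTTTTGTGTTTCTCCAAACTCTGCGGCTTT
Zfp939 promoter, chr7:39449261-39449560, plus strand: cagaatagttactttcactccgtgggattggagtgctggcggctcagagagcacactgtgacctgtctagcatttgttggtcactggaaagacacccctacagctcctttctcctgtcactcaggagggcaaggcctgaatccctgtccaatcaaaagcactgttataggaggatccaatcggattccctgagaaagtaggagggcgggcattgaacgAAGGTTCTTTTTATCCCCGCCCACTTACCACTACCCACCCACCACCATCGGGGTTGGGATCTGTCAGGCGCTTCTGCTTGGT
In Zfp809, 3 of 6 models began inside this window, in Zfp708 2 of 2 and in Zfp939 12 of 12. The models of Zfp939 began up to 32 bases before the annotated start. Windows rich in CpG (over 50% G and C, and observed over expected CpG above 0.6) made up 40.0% of the 120 windows of members (31.2% to 49.3%). The share was 37.9% in annotated genes of the name range without a model (25.5% to 51.6%), 60.1% in Zfp genes numbered under 600 with a model (51.5% to 68.4%) and 33.3% over all 32851 windows. The letters GGATTA, the core motif of Obox and related homeobox proteins, were searched on both strands. They stood in 10.0% of the members' windows (5.27% to 16.8%), with Zfp708 among them and without Zfp809 or Zfp939. They stood in 5.17% of windows of the genes without a model, in 7.25% of those of the lower-numbered Zfp genes and in 7.06% of all windows.

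Most annotated genes of the name range were assembled. Of 171 protein-coding genes with such a name in GENCODE M21, 107 had a sense model (62.6%, 54.9% to 69.8%), where the share over all annotated protein-coding genes was 52.3%, or 53.3% with newer symbols included. Among Zfp genes numbered under 600, 136 of 194 had one (70.1%, 63.1% to 76.5%). The annotated protein carried a KRAB pattern in 72 of 107 members with a protein (67.3%, 57.5% to 76.0%) and in 44 of 64 of the coding genes without a model (68.8%, 55.9% to 79.8%), against 60 of 136 lower-numbered Zfp genes with a model (44.1%, 35.6% to 52.9%). The median number of fingers was 10 in members, between 0 and 23, and 11 in the genes without a model. No finger pattern was found in the annotated proteins of Zfp703, Zfp750, Zfp935, Zfp957 and Zfp972, and there was no annotated protein to read for Zfp939, a pseudogene in GENCODE M21, or for Zfp996. The protein read for Zfp935 had only 150 amino acids. The longest reading frame of its only model, an exact match, was 353 amino acids long, with KRAB and 8 fingers. Zfp935 is thus not among the members counted with both KRAB and fingers.

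The genes with and without a model were spread unevenly over the chromosomes. Chromosome 7 held 22 assembled of 36 named genes, chromosome 17 held 17 of 22 and chromosome 8 held 14 of 16. On chromosome 4, 9 of 20 were assembled, and on chromosome 2 only 2 of 15. The genes without a model on chromosome 2 included Zfp965, Zfp966, Zfp967, Zfp968, Zfp969, Zfp970, Zfp971 and Zfp973, all with a KRAB pattern and with 6 to 14 fingers, while Zfp972 had 1 exact match. On chromosome 4 they included Zfp986, Zfp987, Zfp988, Zfp989, Zfp991 and Zfp992, which also carry the KRAB pattern. Of the 66 names without a sense model, none had one under a newer RefSeq symbol, and 7 were touched on their own strand by a model under another gene's name.

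**Figure D1:**
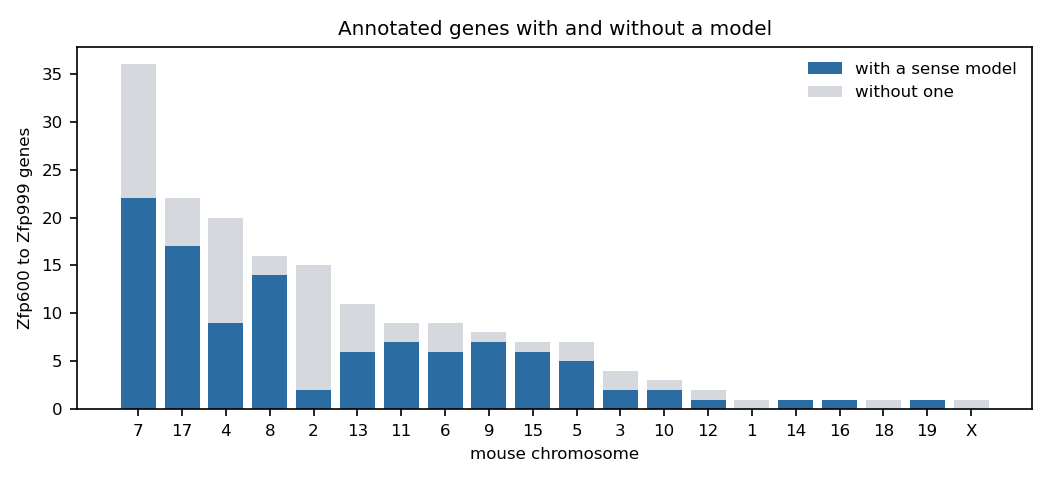
Number of genes named Zfp600 to Zfp999 (y axis) on each mouse chromosome (x axis), with a sense model in the late 2-cell library in blue and without one in grey. Chromosome 8 had models for 14 of 16 genes and chromosome 2 for 2 of 15.

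Members had on average 2.48 models per gene, against 2.12 in Zfp genes numbered under 600 and 2.22 in all other named genes. A single model was found in 46 members (42.2%, 32.8% to 52.0%), where the share over all named genes with a model was 48.8%. At least 3 models were found in 35 (32.1%, 23.5% to 41.7%), against 28.4% of all named genes, and at least 5 in 15 (13.8%, 7.91% to 21.7%), against 9.96%. These 3 shares thus stood close to those over all genes, within their intervals.

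The member with most models was Zfp939 on chromosome 7 (39449518 to 39477413, plus strand), with 12 models of 4 to 6 exons, 10 of them exact matches. GENCODE M21 lists it as a transcribed unprocessed pseudogene. Even so, the longest reading frame computed from 1 of its exact matches was 549 amino acids long, with KRAB and 13 fingers. Its other exact matches with at most 5% unknown bases had frames of 441 amino acids with 13 fingers or 464 with 14, without KRAB. Each of them had a few unknown bases, and no frame was read across those. In 1 model that was no exact match the frame was 81 amino acids long, with KRAB and no finger. All of its models began within 39 bases upstream of or at the outermost GENCODE start. Zfp821 on chromosome 8 followed with 10, of which 6 began 10.3 kb upstream of the outermost GENCODE start and 4 near it. Zfp672 on chromosome 11 had 9, with 3 beginning within 29 bases of the outermost start and 6 beginning 6.97 kb downstream of it, at a second RefSeq start. Zfp936 on chromosome 7 had 8, of which 7 began at 1 base, position 43177590. Zfp644, whose protein is a partner of the histone methyltransferases EHMT1 and EHMT2, had 6 models in 4 start groups and no exact match. Zfp982, Zfp951, Zfp949, Zfp944 and Zfp809 also had 6, and Zfp961, Zfp942, Zfp869, Zfp788 and Zfp707 had 5. Only in Zfp707 among these 15 members were all models exact matches, while in Zfp982 1 of 6 was.

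**Figure D2:**
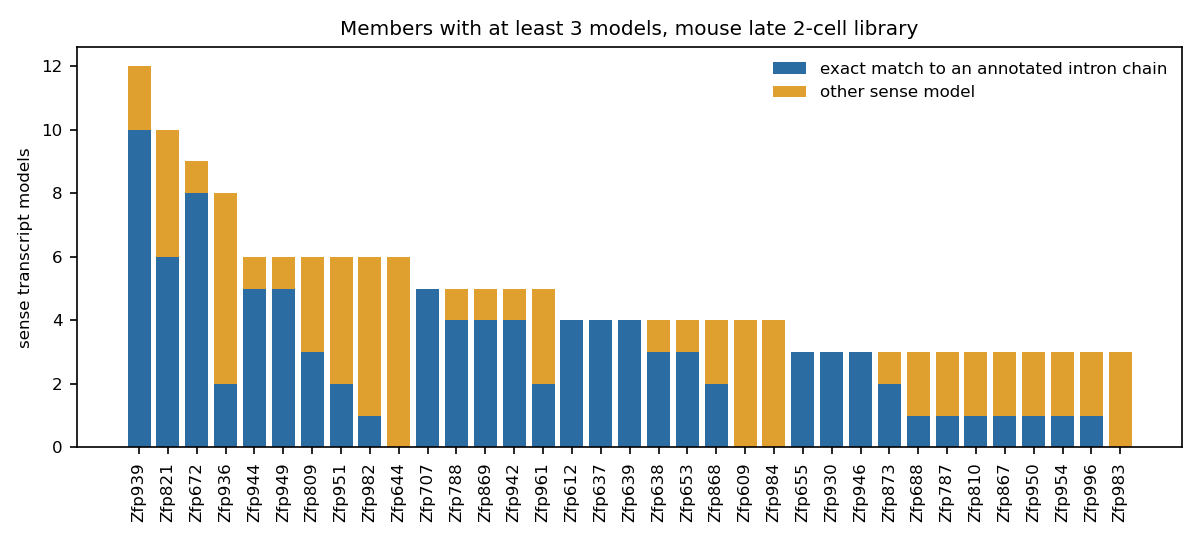
Number of sense models (y axis) of the 35 members with at least 3 models (x axis, in order of number), with exact matches in blue and other sense models in orange. Zfp939 had 12 models, 10 of them exact, and Zfp644 had 6, none of them exact.

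Exact matches made up 166 of the 270 models (61.5%, 55.4% to 67.3%). The share was 65.5% in Zfp genes numbered under 600 (59.7% to 71.0%) and 55.4% in all other named genes (54.8% to 55.9%), so its direction depends on the genes it is set against. Of the rest, 83 models differed in at least 1 splice junction, 8 were contained in a reference transcript, 11 kept introns (codes m and n) and 2 overlapped otherwise. An exact match was found for 86 of 109 members (78.9%, 70.0% to 86.1%), where 72.5% of all named genes had one. By gene, the share was 80.3% in Zfp genes numbered under 600 (72.6% to 86.6%). In protein-coding genes of 3 to 6 exons, a comparison chosen after seeing the data, it was 85.0% (83.8% to 86.3%). The direction by gene thus also depends on the comparison. In 49 members every model was exact. Of the exact matches, 50 of 166 were to a predicted RefSeq transcript (30.1%, 23.3% to 37.7%), against 22.6% in lower-numbered Zfp genes and 24.0% in all other genes. Models of members had a median of 5 exons and 2619 bp, and their last exons a median of 1938 bp. The medians in all other named genes were 7 exons, 1966 bp and 764.5 bp.

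Models of members began at annotated starts in a larger share than those of all other named genes. Of 237 models with a RefSeq start for their gene, 178 began within 50 bp of one (75.1%, 69.1% to 80.5%), against 63.8% in Zfp genes numbered under 600 (57.3% to 69.8%) and 59.1% in all other named genes (58.4% to 59.7%). The members' interval overlapped that of the lower-numbered Zfp genes. In protein-coding genes of 3 to 6 exons, a comparison chosen after seeing the data, the share by model was 68.2% (66.9% to 69.4%). By gene, 78 of 94 members had a model at such a start (83.0%, 73.8% to 89.9%), where the share over all named genes was 68.9%. It was 77.5% in Zfp genes numbered under 600 (68.6% to 84.9%) and 78.9% in protein-coding genes of 3 to 6 exons (77.3% to 80.4%). Both lay within the members' interval. Among the members' exact matches, 89 of 145 began at the RefSeq start to the base (61.4%), so the ends of these models may in part have been taken over from the reference. Among the other models, 19 of 92 did (20.7%, 12.9% to 30.4%) and 51 of 92 began within 50 bp (55.4%, 44.7% to 65.8%).

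**Figure D3:**
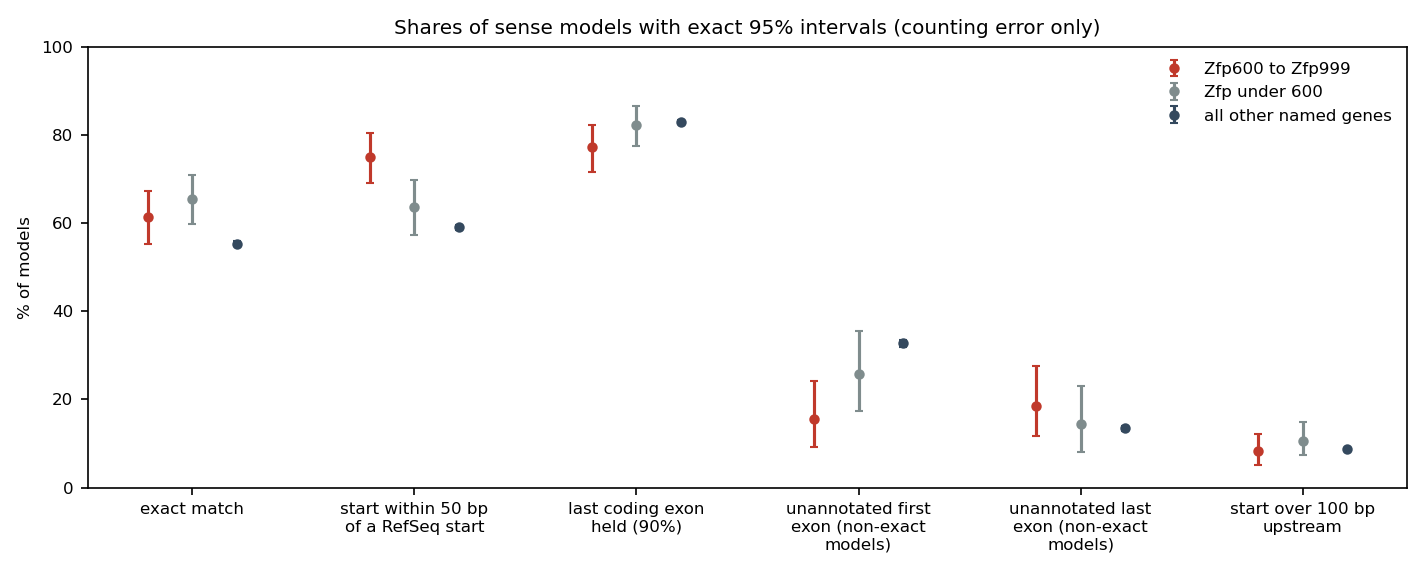
Share of sense models in percent (y axis) for 6 features (x axis), in members (red), Zfp genes numbered under 600 (grey) and all other named genes (dark blue), with exact 95% intervals. Members were at 75.1% for a start within 50 bp of a RefSeq start and at 15.7% for an unannotated first exon, where all other named genes were at 59.1% and 32.7%; for all 6 features the members' interval overlapped that of the lower-numbered Zfp genes.

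The study looked for chimeric transcripts, which begin or end in a transposable element and run into a gene. Repeats were not assigned here, so first exons that overlap no annotated exon on the same strand were counted. Annotated exons were those of GENCODE M21 together with those of the library's own exact matches. Such a first exon was found in 16 of the members' 102 models that had at least 2 exons and were no exact match (15.7%, 9.24% to 24.2%). The share was 25.8% in Zfp genes numbered under 600 (17.4% to 35.7%), whose interval overlaps, and 32.7% in all other named genes (31.9% to 33.5%). By gene, 13 of 109 members had such a model (11.9%, 6.51% to 19.5%), where the share over all named genes was 20.5%. In Zfp genes numbered under 600 it was 8.76% by gene (4.61% to 14.8%). In protein-coding genes of 3 to 6 exons it was 14.3% by gene (13.1% to 15.5%) and 29.9% by model (28.1% to 31.8%). Of the 16 models, 5 began upstream of the outermost start annotated for their gene and 11 downstream of it.

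Zfp809 was the member with most such models. Its protein silences murine leukemia virus and related endogenous retroviruses in mouse embryonic stem cells by binding the primer binding site of the provirus. The gene had 6 models on chromosome 9. The 3 exact matches began at 22225703 or 22225712, at the promoter shown above. The other 3 shared a first exon of 116 bp (chr9:22233440-22233555, mm10, plus strand) that lay 7.73 kb downstream of the outermost annotated start, within the first intron, and overlapped no annotated exon. It was spliced to the KRAB exon, and these 3 models held the bases of the KRAB pattern and of all 7 fingers. Their reading frames were not read, because the bases of the new first exon are not in the annotated transcripts.

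**Figure D4:**
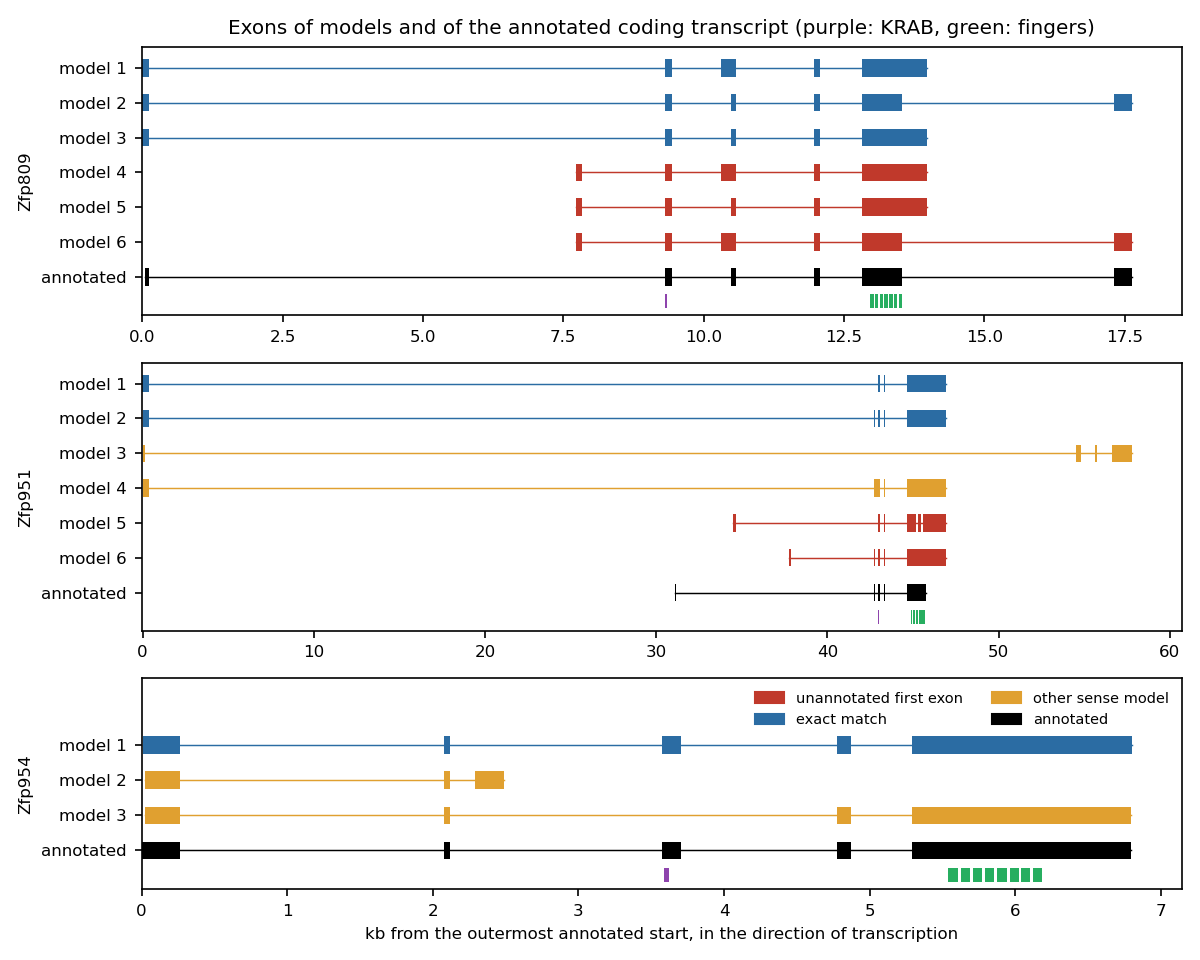
Exons of each sense model of Zfp809, Zfp951 and Zfp954 and of their annotated coding transcript (rows), by distance in kb from the outermost annotated start (x axis), with models that have an unannotated first exon in red, exact matches in blue, other models in orange and the annotation in black. Below each annotated transcript the KRAB pattern is in purple and the fingers are in green; the 3 red models of Zfp809 begin 7.73 kb downstream of the start.

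Upstream first exons were found in 5 members. Zfp982 had 1 model that began 181.9 kb upstream, or 132635 bp upstream of the nearest RefSeq start of the gene. It shared splice sites with Zfp978, a gene of the same cluster with no sense model of its own, so the model joined splice sites of both. Zfp647 had 1 that began 45.6 kb upstream, with a first exon of 116 bp, and it held the KRAB pattern and all 13 fingers. Zfp787 had 1 at 4.07 kb with no annotated finger, and Zfp790 1 at 2.35 kb with neither the annotated KRAB nor an annotated finger. Zfp810 had 1 at 0.378 kb, whose longest reading frame kept KRAB and all 10 fingers. Downstream first exons were found in Zfp951, at 34.5 kb and 37.7 kb, in Zfp609 at 76.3 kb, Zfp950 at 66.8 kb, Zfp976 at 25.6 kb, Zfp990 at 8.43 kb, Zfp974 at 6.35 kb and Zfp709 at 1.77 kb. Of these, Zfp990, Zfp974 and Zfp709 kept all their fingers (13, 21 and 19), and the models of Zfp609, Zfp950 and Zfp976 held none. In Zfp951 the model from 37.7 kb held all 10 finger positions and the one from 34.5 kb held 6. The longest frame read in the first was 403 amino acids long, with no finger and no KRAB. However, 123 bases of this model were unknown and its first exon of 121 bp was unannotated, so a frame that begins there could not be read.

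Far upstream starts also occurred in annotated exons. In all, 22 of 267 models began over 100 bp upstream of the outermost GENCODE start (8.24%, 5.24% to 12.2%), against 10.7% in lower-numbered Zfp genes (7.38% to 14.8%) and 8.75% in all other named genes (8.43% to 9.08%). After Zfp982, the farthest were 2 models of Zfp993, 109 kb upstream, but 10839 bp upstream of the nearest RefSeq start. They shared splice sites with Zfp981, another gene without a sense model of its own. They were followed by Zfp647, by the only model of Zfp759 at 30.7 kb, which kept KRAB and all 21 fingers, and by the 6 models of Zfp821. These models of Zfp821 included exact matches. Their first exon lay outside the GENCODE exons and counted as annotated through these matches. The 5 models of Zfp869 began 6.04 to 6.34 kb upstream of its GENCODE start, but within 166 bp of a RefSeq start.

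Unannotated last exons were found in 19 of 102 models (18.6%, 11.6% to 27.6%) of 14 members. The share was 14.4% in Zfp genes numbered under 600 (8.12% to 23.0%) and 13.4% in all other named genes (12.9% to 14.0%), and the members' interval overlapped both. It lay above the 7.83% in protein-coding genes of 3 to 6 exons (6.8% to 9.0%), a comparison chosen after seeing the data. The interval treats models as independent, although models of Zfp936 and of Zfp982 shared a last exon, and no share by gene was computed for the comparison genes. Zfp936 had 3 models with an unannotated last exon, all ending in the same 225-bp exon beyond the fingers, so they still held all 11. In the other 13 members, among them Zfp609, Zfp943, Zfp951, Zfp983 and Zfp985, every model with such a last exon held none of the gene's annotated fingers, 16 of the 19 models in all. Whether these last exons encode fingers of their own was not tested. That of Zfp943, for example, was 3657 bp long, and 3657 bases of its model were unknown.

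Since the fingers lay in the last coding exon in 69 of the 70 members with KRAB and fingers, models were asked whether they held it. The exception was Zfp809, where some models that held all 7 fingers were counted as lacking this exon. At least 90% of that exon's coding part was held by 197 of 255 models (77.3%, 71.6% to 82.3%), against 82.4% in lower-numbered Zfp genes (77.5% to 86.6%) and 82.9% in all other named genes (82.5% to 83.4%). A model that held it was found for 90 of 107 members (84.1%, 75.8% to 90.5%), where the share over all named genes was 92.6%. It was 89.0% in Zfp genes numbered under 600 (82.5% to 93.7%), whose interval overlaps. A model that lacked it was found for 34 of 107 (31.8%, 23.1% to 41.5%), where the share over all named genes was 24.8%. In Zfp genes numbered under 600 this share was 25.0% (18.0% to 33.1%), again with an overlapping interval. In protein-coding genes of 3 to 6 exons that share was 17.7% (16.4% to 19.0%).

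Finger by finger, 195 of the 249 models of the 102 members with annotated fingers held all of them (78.3%, 72.7% to 83.3%), 14 held some and 40 held none (16.1%, 11.7% to 21.2%). Among exact matches 142 of 151 held all fingers, and among the other models 53 of 98 did. Both an all-finger and a fingerless model were found for 15 members. Examples were Zfp672, with 6 models holding all 14 fingers and 3 holding none, and Zfp638, with 3 models holding both of its fingers and 1 holding none. In 9 members no model held any annotated finger: Zfp628, Zfp654, Zfp692, Zfp787, Zfp931, Zfp976, Zfp980, Zfp983 and Zfp993. Only the positions of a gene's annotated fingers were counted here, so fingers encoded elsewhere in a model would be missed.

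The annotated positions of the KRAB domain and of the fingers were then read together in the 162 models of the 70 members that carry both. The bases of both were held by 124 models (76.5%, 69.3% to 82.8%). KRAB with part of the fingers was held by 11, KRAB with no finger by 8, all fingers without KRAB by 5 and neither by 14. The 8 models with KRAB and no finger belonged to Zfp869, Zfp931, Zfp942, Zfp943, Zfp950, Zfp976 and Zfp983. The longest reading frame of the one from Zfp942 was 80 amino acids long with the KRAB pattern and no finger, beside frames of 486 amino acids with KRAB and 11 fingers in 3 other models. An exact match of Zfp950 had a frame of 64 amino acids with the KRAB pattern alone.

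The models with all fingers and no KRAB bases came from Zfp708, Zfp954, Zfp961 and Zfp979. The protein of Zfp708 binds RMER19B retrotransposons and keeps their DNA methylated. The gene had 2 models, both exact matches that began at the promoter shown above. One held the whole 127-bp KRAB exon, with a frame of 529 amino acids with KRAB and 16 fingers. The other kept 84 of its 127 bases, lost the pattern and had a frame of 496 amino acids with 16 fingers. In Zfp954 1 model held the KRAB exon, with a frame of 416 amino acids. Another skipped it and went on to all 9 matches of the finger pattern in a frame of 271 amino acids. Of these matches 2 overlap and end at the same base, so they are 1 finger counted again. In Zfp979 the frames were 407 amino acids with KRAB and 210 without, both with 3 fingers.

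**Figure D5:**
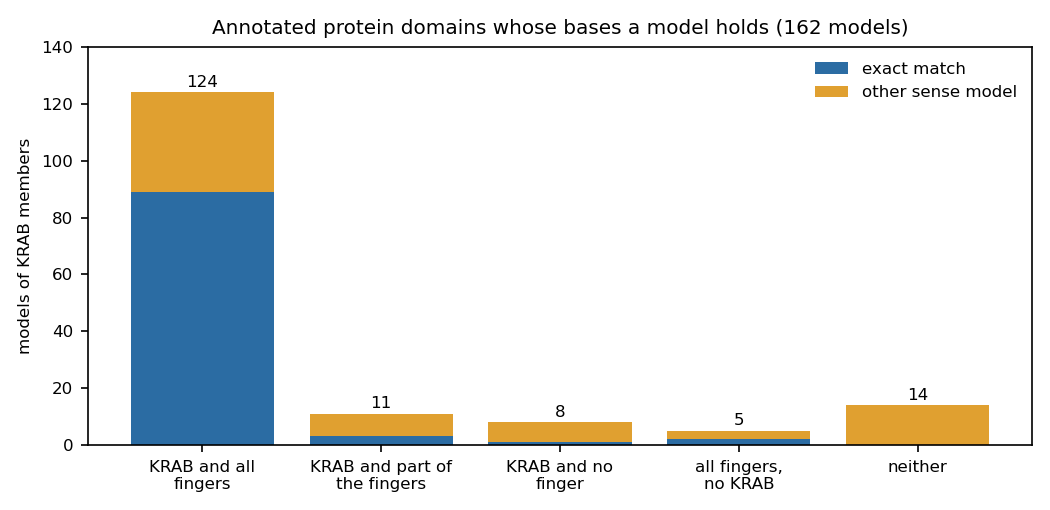
Number of models (y axis) of the 70 members with KRAB and fingers, by the annotated domains whose bases they hold (x axis), with exact matches in blue and other sense models in orange. Both domains were held whole by 124 of 162 models, and all 14 models with neither domain were not exact matches.

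Holding the bases of a domain does not place it in the reading frame. Of 95 models whose bases were nearly all known (at most 5% unknown) and which held KRAB and all fingers, the longest frame carried both in 71 (74.7%, 64.8% to 83.1%). In 19 models of 11 members it carried all fingers and no KRAB, and 11 of these 19 were exact matches. The members were Zfp612, Zfp688, Zfp788, Zfp867, Zfp873, Zfp930, Zfp932, Zfp936, Zfp942, Zfp949 and Zfp952, and 9 of the 11 also had a model whose frame carried both. No frame was read across an unknown base, so unknown bases before the KRAB exon could take KRAB out of a frame. Among the 19, unknown bases numbered 59 in Zfp952, 64 and 25 in 2 models of Zfp936, 50 and 40 in Zfp612 and 49 and 20 in Zfp930. Those of Zfp932, Zfp788, Zfp873 and Zfp942 had none. In 2 models of Zfp961 the longest frame carried part of the fingers and no KRAB, and in 1 model each of Zfp809, Zfp810 and Zfp951 it carried neither. That model of Zfp951 had an unannotated first exon, in which no frame could be read. Zfp932, whose protein represses endogenous retroviruses in mouse embryonic stem cells, had 2 exact matches. One had 4 exons and a frame of 526 amino acids with KRAB and 15 fingers. The other had 5 exons and a frame of 493 amino acids with 15 fingers and no KRAB, although it held the same KRAB exon. Zfp788 had frames of 869 and 864 amino acids with KRAB and 23 fingers in 2 models, and of 832 amino acids without KRAB in 2 others. Zfp930 had a frame of 409 amino acids with 12 fingers and no KRAB in 2 of its models. A longest frame is a computed one, and which protein was made was not measured.

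Neighbouring genes were grouped, since such genes arise by duplication in place. Within 100 kb of another member lay 49 of 109 (45.0%, 35.4% to 54.8%), in 18 groups, and within 100 kb of another lower-numbered Zfp gene lay 49 of 137 (35.8%, 27.8% to 44.4%). The KRAB pattern was found in 41 of 49 grouped members and in 31 of 58 of the others with a protein. Grouped members had 2.33 models per gene and the others 2.60.

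The largest group, on chromosome 17 (21566978 to 22018612, mm10), held Zfp948, Zfp983, Zfp760, Zfp820, Zfp942 and Zfp943 with 14 models, 8 of them exact. Zfp948 and Zfp760 had 1 exact match each with 15 and 17 fingers, while the 3 models of Zfp983 held no annotated finger and none was exact. Zfp942 and Zfp943 began head to head within 1 kb of each other. On chromosome 8 (69610654 to 69774920) a group of Zfp868, Zfp964, Zfp869, Zfp963 and Zfp866 had 12 models. There Zfp964 and Zfp963 had 1 exact match each with all 9 and 8 fingers, and the single model of Zfp866 held 4 of 12. On chromosome 4 (147310479 to 147809824) Zfp982, Zfp985, Zfp979 and Zfp984 had 14 models, of which 2 were exact. In this group the 7 annotated fingers of Zfp982 were held whole by 1 of its 6 models, and no model of Zfp985 or Zfp984 held all of theirs. Zfp979 and Zfp985 are among the members whose reference transcript is placed a second time, so the assignment of models in this group is uncertain.

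A model of another gene or locus began head to head within 1 kb of 10 members (9.17%, 4.49% to 16.2%), where the share over all named genes was 13.1%. The partners were Cggbp1 beside Zfp654, Ccdc92 beside Zfp664, Sh3bp5l beside Zfp672, 4930481B07Rik beside Zfp687, B130055M24Rik beside Zfp689 and Gm5590 beside Zfp939, and Zfp758 with Zfp944 and Zfp942 with Zfp943 were pairs of members. Models that were not sense carried the names of 9 members. They were 14 models inside introns of 7 genes, among them 3 each in Zfp609, Zfp638 and Zfp936, and antisense models of Zfp709 and Zfp956.

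Of 24 genes of the name range known from earlier work on repression, development or cell growth, 17 had a model (70.8%), where 62.6% of the coding genes of the name range did. Among those known for silencing retroelements, Zfp809 had 6 models, Zfp708 and Zfp932 had 2 each, and Zfp819, a TRIM28 partner, had 1 exact match holding KRAB and 9 fingers. Zfp638, related to a human protein that silences unintegrated retroviral DNA, had 4 models of 2 to 27 exons. Zfp830, needed for the survival of preimplantation embryos, had 1 unspliced model with its finger. Zfp622, a factor of large ribosomal subunit maturation, had 1 exact match with all 3 fingers. Zfp706, known from the self-renewal of mouse embryonic stem cells, had 2 exact matches whose frame was 76 amino acids with 1 finger. Zfp750, known from epidermal differentiation, had 1 exact match with a frame of 703 amino acids. Zfp609, Zfp644, Zfp655, Zfp668, Zfp687, Zfp692, Zfp703 and Zfp800 had 4, 6, 3, 2, 2, 1, 1 and 2 models. Zfp661, Zfp618, Zfp711, Zfp827, Zfp746, Zfp652 and Zfp667 had no sense model.

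A chosen list held partners of KRAB zinc finger proteins, other chromatin genes and Zfp57. Models were found for 32 of its 32 genes, where 52.3% of all annotated protein-coding genes had a model by name. Their median was 4 models, and all other named genes with a model had a median of 2. Trim28 and Setdb1 had 3 models each, with 1 and 3 exact matches, and the heterochromatin protein genes Cbx1, Cbx3 and Cbx5 had 8, 4 and 4. Ehmt1 had 17, Pphln1 of the HUSH complex 11, and Zfp57, the KRAB zinc finger gene that guards imprinted DNA methylation, 4. Tasor, listed under its older symbol Fam208a and encoding another HUSH subunit, had 3, none of them exact.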

How the data were processed

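The measurement was nanopore cDNA sequencing of 1 pooled mouse library (14 PCR cycles, per the labels' protocols). The deposited file holds StringTie transcript models, per the file headers, with exon start and end positions and no counts; this unit is a position, neither an abundance nor a score. The build is mm10, per the submitters' processing notes; the aligner, filters and versions were not given in the sources used here. Guided assembly and filtering could take over annotated ends and drop rare transcripts. Members and lists were chosen with earlier results of these data known. Listed symbols were matched to newer RefSeq symbols (GRCm38.p6), and protein-coding genes of 3 to 6 exons were added as comparison genes, both after seeing the data, except that these genes were planned for models per gene. Groups came from the labels. Exons, coding parts and transcript bases came from GENCODE M21, which names 108 of the 109 members. For unannotated first and last exons, the exons of the library's own exact matches were added to those of GENCODE M21. GENCODE proteins were used for the planned protein features. Fingers were 2 cysteines and 2 histidines at the usual spacing, and KRAB an A-box pattern. Matches of the finger pattern could overlap, so 1 finger could be counted more than once, as in Zfp954 and Zfp821. All finger numbers are counts of such matches. Named genes were the 15 members with most models, those with an unannotated first exon, the 5 farthest upstream, the 3 largest groups and the known list; others were named after their values were seen. Python 3.11.15, numpy 2.4.6, scipy 1.17.1 and matplotlib 3.10.9 were used, and the structural measures were tested on simulated data. Shares treat models as independent draws.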

Additional observations from a re-analysis of the deposited data

How the results depend on the processing

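With exact matches alone, 49.1% of the annotated coding genes of the name range had a model, members had 1.93 models per gene, 4.85% of models began upstream and 93.5% held the last coding exon. With the library's exact matches as the only annotation, unannotated first exons made up 49.0% and unannotated last exons 52.0%, by construction of a smaller annotation. Counting any upstream distance gave 33.7%, and neighbours within 200 kb took in 55.0% of members. The exact-match share was 6.10 percentage points above all other named genes, but the difference turned to -4.04 points beside Zfp genes numbered under 600, and to -3.57 beside protein-coding genes of 3 to 6 exons, a comparison chosen after seeing the data. Of 51 alternatives, 33 stayed within the 95% interval of the share, or of the mean taken as a Poisson count, among them names from 700, a letter after the number and models of at least 2 exons. Another 8 concerned differences from other comparison genes and kept their sign. Among these, beside protein-coding genes of 3 to 6 exons, the difference in unannotated last exons was 10.8 points, against 5.18 beside all other named genes, and in the last coding exon held -9.41, against -5.66. In unannotated first exons it was -10.1 beside Zfp genes numbered under 600, against -17.0. No paired analysis was possible because each species had 1 library, so the shared replicate number joins different species; for the same reason no replicate could be left out. Depth is unknown, so genes without a model may have been too rare to assemble.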

Other observations

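The members with both KRAB and fingers included several with near-identical KRAB exons. Zfp868 and Zfp869, neighbours on chromosome 8, shared 96.9% of the exon, and Zfp936 shared 97.6% with Zfp976 and 96.9% with Zfp977. Of these, Zfp936 had 8 models and Zfp976 and Zfp977 had 1 and 2, and the single model of Zfp976 held KRAB and no finger. How reads were divided among such copies was not tested.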
